A study of Mus musculus with 12 samples.

Results

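A group of 9 genes of the RAS pathway, chosen as genes mutated in leukemia (Ptpn11, Gab2, Sos1, Nras, Nf1, Rasa1, Cbl, Cblb and Braf), was examined for binding sites of TET2 in 2 cultures of mouse blood-forming cells. They are 9 of the 21883 protein-coding genes of the mouse RefSeq annotation (GRCm38.p6, the coordinates of mm10). A binding site was counted for a gene when its midpoint lay inside the gene, or within 100 kb of it with an end of that gene nearer than any end of another protein-coding gene. By this rule the 9 genes held 9 of the 6895 sites of the AML list and 29 of the 18822 sites of the myeloid list.

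TET2 is an enzyme that oxidizes methylated cytosine in DNA, and chromatin immunoprecipitation sequencing (ChIP-seq) locates the DNA that a protein is bound to. The myeloid cells were blood cells grown in vitro and immortalized with the retroviral transgene MigR1-AML1-ETO, of genotype Tet2fl/fl; AML1-ETO or Tet2-/-; AML1-ETO. The AML cells were an acute myeloid leukemia culture without a transgene, of genotype Npm1+/cA; Fl3+/ITD or Npm1+/cA; Fl3+/ITD; Tet2-/-. In these AML genotypes Fl3 stands for the gene Flt3. Each cell type had 2 wild-type and 2 Tet2-knockout libraries precipitated with a rabbit antibody to the TET2 N-terminus. Each also had 1 input and 1 IgG library from cells that were not knocked out. All cells grew with stem cell factor (50 ng/ml), interleukin 3 (10 ng/ml) and interleukin 6 (10 ng/ml), 3 cytokines whose receptors signal through RAS. Whether the replicates came from separate cultures or mice is not stated in the labels.

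The values are 1 list of site positions per cell type. No list holds a height, a p-value or a value for a single library, so the depth behind a site is unknown and no count below has a replicate error. A difference between the lists compares these lists only, and the lists differ in length, with 2.73 myeloid sites for each AML site. A site is called shared when it overlaps a site of the other list by at least 1 bp.

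RAS proteins are switches that are on when they hold GTP. Activated cytokine receptors recruit adaptors (Gab2) and the phosphatase SHP2 (Ptpn11), which help to bring the exchange factor SOS1 to RAS (Nras), and SOS1 loads it with GTP. Neurofibromin (Nf1) and p120 RasGAP (Rasa1) make RAS hydrolyse GTP, the ubiquitin ligases CBL and CBL-B mark active receptors for destruction, and BRAF carries the signal to the kinases MEK and ERK. In myeloid leukemias, activating mutations of Nras and Ptpn11 and loss or inactivation of Nf1 and Cbl switch this pathway on.

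The 9 genes held 3.22 myeloid sites for each AML site, near the 2.73 of the whole lists, and 8 of their 9 AML sites were in both lists. Of the 9 genes, 6 had at least 1 AML site and 8 had at least 1 myeloid site. Among all protein-coding genes, of all lengths, the shares were 19.7% and 41.9%. In the length classes of the 9 genes, described below, the AML share ran from 7.5% (Nras) to 38.7% (Gab2, Nf1 and Cblb). The myeloid share ran from 29.1% to 54.0% at the same genes. Sites were more numerous in the myeloid list at 7 genes, and equal at Rasa1 (1 in each) and at Braf (0 in each). Over all 21883 protein-coding genes they were more numerous in that list at 7622 (34.8%), and 12258 had no site in either list. A gene without a site cannot have more in 1 list, so 34.8% understates the share among genes with a site. Of the 9 AML sites, 8 were shared (88.9%, exact Clopper-Pearson 95% interval 51.8 to 99.7), against 71.4% of all AML sites, which lies inside that interval. Those 8 were 27.6% of the 29 myeloid sites (12.7 to 47.2), against 26.2% of all myeloid sites. Both intervals take sites as independent and are wide, so they do not show equal shares. At 5 of the 6 genes with an AML site every AML site was shared, as held for 64% of all genes with an AML site. Sos1 and Nras had myeloid sites and 0 AML sites.

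**Figure D1:**
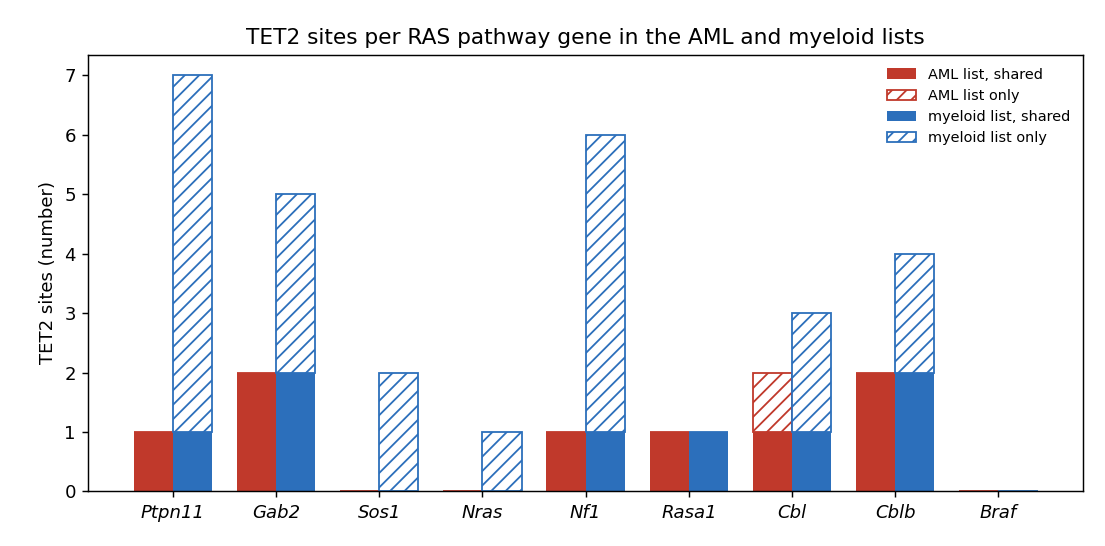
TET2 sites per gene (number) in the AML list (red) and the myeloid list (blue), with filled bars for shared sites and hatched bars for sites of 1 list only. Ptpn11 had 7 myeloid sites and 1 AML site, Cbl had the 1 AML site that was not shared, and Braf had 0 sites in both lists.

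Most of the genes are long, and long genes have more sequence in which a site is counted. The sequence counted per gene had a median of 162 kb over the 9 genes and 49.5 kb over all genes. When all genes were divided into 10 classes of equal size by this length, the class averages of the 9 genes summed to 4.80 AML and 11.8 myeloid sites, where 9 and 29 were found. The exact Poisson 95% intervals of these counts were 4.12 to 17.1 and 19.4 to 41.6. They cover counting error only and take neighbouring sites as independent. Ptpn11 and Nf1 together held 13 of the 29 myeloid sites. The other 7 genes held 16, where their class averages summed to 8.81. The 9 genes made up 0.131% of the AML list and 0.154% of the myeloid list.

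**Figure D2:**
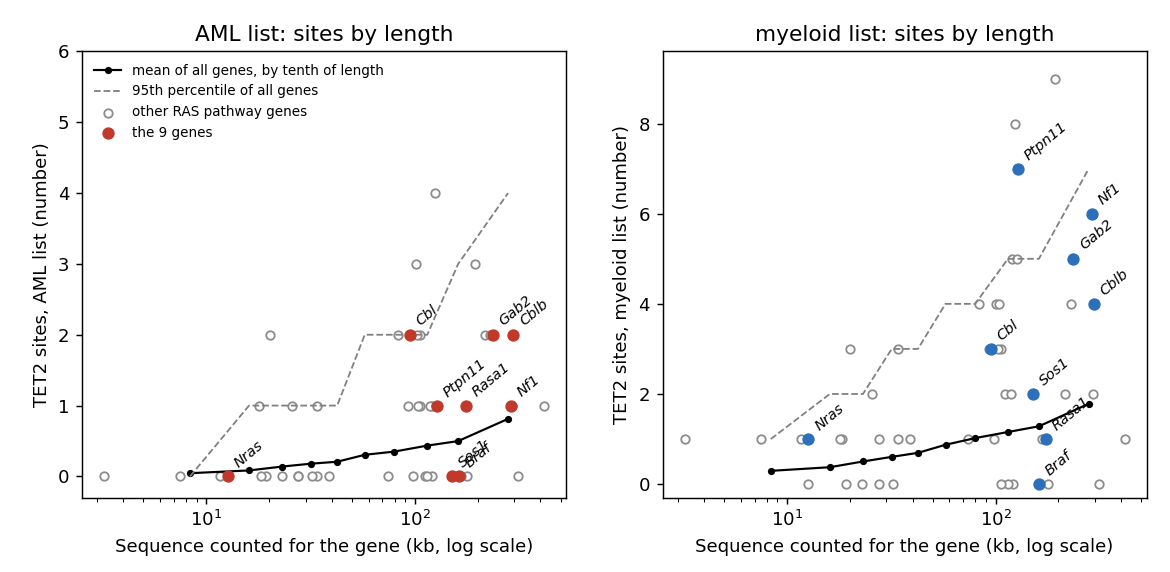
TET2 sites per gene (number) in the AML list (left) and the myeloid list (right) against the sequence counted for the gene (kb, log scale). Filled points are the 9 genes, open points other RAS pathway genes, the black line the mean of all genes per length class and the dashed line their 95th percentile. Ptpn11 with 7 myeloid sites lies above the dashed line, and Braf with 0 lies below the mean in both panels.

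The cell types were compared gene by gene on sites found in 1 list only. Fisher's exact test (two-sided) was run on AML-only against myeloid-only sites of 8669 genes, with Benjamini-Hochberg adjustment over all of them. It called 3 genes (0.0346%), none of the 9. Of the 9 genes 7 could be tested, and the smallest unadjusted p among them was 0.312, at Cbl (exact test, adjusted p = 1). Of the assigned sites, 1852 were AML-only and 13956 myeloid-only, so a gene with a few myeloid-only and 0 AML-only sites, such as Ptpn11 with 6, cannot pass it.

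The sites were in part at transcription starts and in part far from any gene end. Annotated starts were known for 8 of the genes (not for Gab2). Of these 8, 4 had a myeloid site within 1 kb of the start (Ptpn11, Nras, Rasa1 and Cbl) and 2 had an AML site there (Rasa1 and Cbl). Among the 17491 genes in the table of starts, 22.2% had a myeloid site at a start and 2.53% an AML site. The 250 bases before the start are shown for these 4 genes, where the lists place TET2, and for Braf, which had no site, with CpG dinucleotides, the substrate sequence of TET2, in capitals. All are RefSeq promoters of GRCm38.p6, written in the direction of transcription. Rasa1 lies at chr13:85289487-85289736 (minus strand), Cbl at chr9:44234047-44234296 (minus), Ptpn11 at chr5:121191398-121191647 (minus), Nras at chr3:103058035-103058284 (plus) and Braf at chr6:39725464-39725713 (minus).
Rasa1: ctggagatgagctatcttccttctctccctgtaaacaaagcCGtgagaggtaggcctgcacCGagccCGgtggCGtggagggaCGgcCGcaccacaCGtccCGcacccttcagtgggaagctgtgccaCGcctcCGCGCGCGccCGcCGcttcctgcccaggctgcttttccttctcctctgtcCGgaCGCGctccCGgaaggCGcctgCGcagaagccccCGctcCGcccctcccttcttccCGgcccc
Cbl: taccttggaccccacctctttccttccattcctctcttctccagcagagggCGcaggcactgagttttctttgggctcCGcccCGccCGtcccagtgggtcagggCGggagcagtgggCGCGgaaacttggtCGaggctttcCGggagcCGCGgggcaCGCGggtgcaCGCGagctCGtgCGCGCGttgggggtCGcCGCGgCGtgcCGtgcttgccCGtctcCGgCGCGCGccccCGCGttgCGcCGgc
Ptpn11: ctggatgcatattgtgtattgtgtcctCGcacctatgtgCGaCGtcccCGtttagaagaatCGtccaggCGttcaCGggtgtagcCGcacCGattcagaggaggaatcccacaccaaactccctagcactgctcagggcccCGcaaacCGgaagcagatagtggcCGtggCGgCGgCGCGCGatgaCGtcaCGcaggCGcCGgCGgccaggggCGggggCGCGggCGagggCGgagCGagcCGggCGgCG
Nras: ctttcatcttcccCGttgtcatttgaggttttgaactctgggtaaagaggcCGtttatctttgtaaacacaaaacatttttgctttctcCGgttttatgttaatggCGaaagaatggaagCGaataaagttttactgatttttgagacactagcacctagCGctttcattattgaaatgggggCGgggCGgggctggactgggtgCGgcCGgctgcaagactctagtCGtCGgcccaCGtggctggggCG
Braf: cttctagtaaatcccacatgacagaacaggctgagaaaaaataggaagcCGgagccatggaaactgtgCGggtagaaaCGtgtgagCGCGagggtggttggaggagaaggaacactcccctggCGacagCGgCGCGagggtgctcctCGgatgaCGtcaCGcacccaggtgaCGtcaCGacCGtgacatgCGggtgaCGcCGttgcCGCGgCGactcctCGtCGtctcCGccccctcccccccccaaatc

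CpG dinucleotides were frequent in all of these sequences. The window of Cbl had 33, that of Ptpn11 31, that of Rasa1 24 and that of Nras 14. Braf had 24, and the other 3 genes without a site at the start had 22 (Sos1), 21 (Nf1) and 14 (Cblb). The median was 10 over 21262 promoters of protein-coding genes. Over all promoters it was 18 (quartiles 11 and 25) with a myeloid site at the start and 7 (2 and 16) without. With and without an AML site it was 13 (4 and 22) and 9 (3 and 19). Within the 8 genes the number of CpG did not separate the starts with a site, 14 to 33, from those without, 14 to 24.

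**Figure D3:**
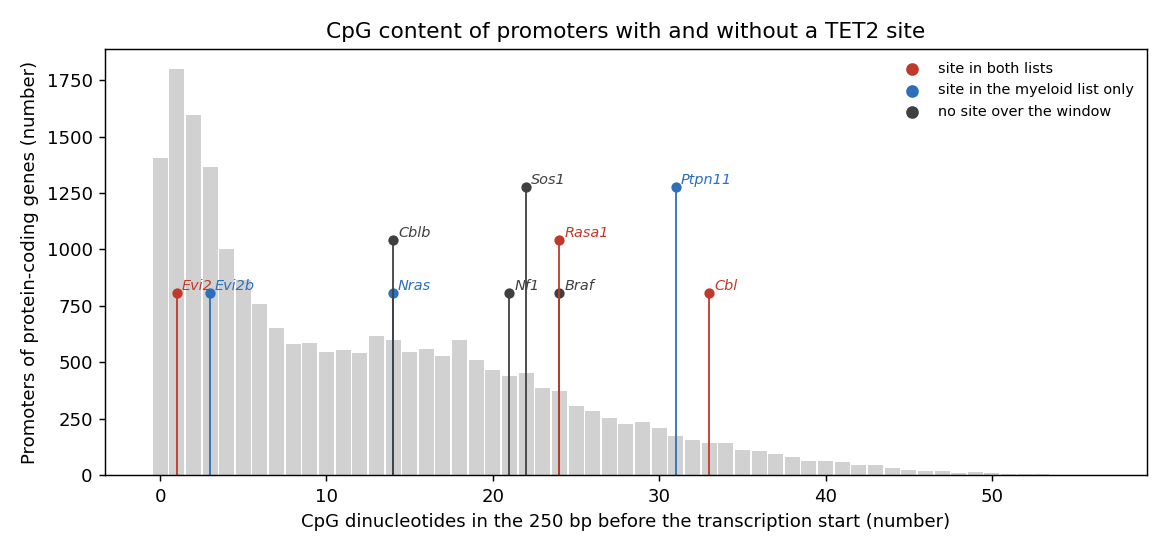
Promoters of protein-coding genes (number, grey bars) by their number of CpG dinucleotides in the 250 bp before the transcription start. Vertical lines of arbitrary height mark single genes, in red with a site over the window in both lists, in blue with a myeloid site only and in dark grey with none. Cbl with 33 and Ptpn11 with 31 lie far to the right, and Evi2 with 1 and Evi2b with 3, which are nested in Nf1, at the left.

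Short motifs of blood transcription factors were searched on both strands of the same 250 bases. The ETS motif CCGGAA was found in 5 of the 8 promoters (Ptpn11, Sos1, Nf1, Rasa1 and Cbl) and in 15.0% of all promoters. The Sp/KLF motif GGGCGG was found in 6 and in 42.6% of all promoters. The 6 were all 4 with a myeloid site at the start, and Cblb and Braf, which had none there. The RUNX motif TGTGGT was found at Sos1 and Rasa1 (12.4% of all promoters), and the E-box CACGTG at Nras (6.63%). The C/EBP motif TTGCNNAA (9.09%) and the AP-1 motif TGANTCA (6.13%) were in none of the 8 windows. The ETS, Sp/KLF and E-box motifs hold a CpG themselves, and all 8 windows have more CpG than the median promoter. A match is a stretch of letters and not a measured binding site of the factor.

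Ptpn11, which encodes the phosphatase SHP2, had 7 myeloid sites with the limit of 100 kb, more than any other of the 9 genes. With a limit of 20 kb it had 3, fewer than Gab2 (5), Nf1 (5) and Cblb (4). The limit applies only to sites outside a gene, and sites inside a gene count at any distance from its ends. All sites of Cblb lay inside it, and 4 myeloid sites of Nf1 were nearest to a nested gene. Ptpn11 lies on chromosome 5 from 121130533 to 121191397, on the minus strand, and had 1 AML site. Genes of its length class averaged 0.43 AML sites and 1.16 myeloid sites. At least 5 myeloid sites were found at 3.39% of all protein-coding genes, Ptpn11, Nf1 and Gab2 among them, and at least as many as at Ptpn11 were found at 1.19%. These shares are over genes of all lengths. The 95th percentile of myeloid sites was 5 in the length class of Ptpn11. In the class of Nf1 and Gab2 it was 7, which neither of them exceeded. None of the 7 myeloid sites of Ptpn11 lay inside the gene. One, at chr5:121191125-121191828, covered the whole promoter window printed above, with its midpoint 79 bp from the start. Another lay 5.89 kb upstream, and 5 lay beyond the other end of the gene, at 6.42, 23.3, 29.4, 30.2 and 51.8 kb from it.

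The AML site of Ptpn11 belonged to this downstream group. It lay at chr5:121124038-121124953, 6.04 kb beyond the gene, and was 915 bp wide, wider than or equal to 96.1% of AML sites. The overlapping myeloid site was 1650 bp wide and was merged from 2 deposited sites of 747 and 923 bp. The AML site shared 896 bp with the second of them and 0 bp with the first. Only Ptpn11 had merged sites among the 9 genes, the other being the one 5.89 kb upstream. Beyond 20 kb from the gene lay 4 of its 7 myeloid sites. No annotated gene of any kind had an end nearer to these sites than Ptpn11.

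Gab2, an adaptor that binds SHP2, had its shared sites deep inside the gene. It lies on chromosome 7 from 97081751 to 97308951 and had 2 AML sites and 5 myeloid sites, against class averages of 0.81 and 1.78. Both AML sites were shared. They lay at chr7:97209892-97210543 and chr7:97210985-97211709, 98.7 and 97.6 kb from the nearer end of the gene, and their midpoints were 1.13 kb apart. The myeloid sites at this place were 1.11 kb apart, and the midpoints of the lists differed by 12 and 4 bp. Over all shared sites the median difference was 25 bp (quartiles 11 and 49). A second site of the same list within 1.5 kb was found for 3.80% of AML sites and 8.05% of myeloid sites. The other 3 myeloid sites of Gab2 were not shared, 2 inside the gene, 57.7 and 97.0 kb from its nearer end, and 1 outside, 6.52 kb from its lower-coordinate end.

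Sos1, the exchange factor that loads RAS with GTP, had 2 myeloid sites and 0 AML sites. Its class averages were 1.28 and 0.50. The gene lies on chromosome 17 from 80393752 to 80480453, on the minus strand, and both sites lay upstream of its start, by 2.62 kb (chr17:80482732-80483415) and 4.99 kb (chr17:80485057-80485836). The nearest AML site was 343 kb away. None lay inside the 86.7 kb of the gene.

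Nras, the RAS protein of the group, had 1 myeloid site and 0 AML sites. It is the shortest of the 9 genes (9.63 kb, chromosome 3 from 103058285 to 103067914, plus strand), with class averages of 0.37 and 0.08 sites. The site at chr3:103057991-103058661 had its midpoint 41 bp into the gene and covered the whole promoter window printed above. The site was 670 bp wide. The nearest AML site was 148 kb away.

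Nf1, which encodes the RAS-inactivating protein neurofibromin, had 1 AML site and 6 myeloid sites, most of them at other genes that lie inside it. Nf1 spans 242 kb of chromosome 11, from 79339590 to 79581609 on the plus strand, and 4 protein-coding genes are nested in it, Omg, Evi2, Evi2a and Evi2b. The Evi2 genes are known from a site of retroviral insertion in mouse leukemia, and Evi2b encodes a transmembrane protein of blood cells. The AML site and 4 of the 6 myeloid sites lay nearer to an end of Evi2, Evi2a or Evi2b than to an end of Nf1. With the nearest gene end alone as the rule, Nf1 had 0 AML and 2 myeloid sites. The class averages of 0.81 and 1.78 belong beside its 1 AML and 6 myeloid sites. They were not computed with the nearest gene end alone.

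The shared site in Nf1 lay at the start of Evi2. It was 651 bp wide in the AML list (chr11:79530251-79530902) and lay wholly within the 716 bp of the myeloid site (chr11:79530189-79530905). Its midpoint was 33 bp from the end that Evi2 and Evi2a have in common, which is the annotated start of Evi2, and 191 kb from the start of Nf1. A myeloid-only site (chr11:79523423-79524127) had its midpoint 13 bp from the start of Evi2b. The other sites of this group were also myeloid-only, 1.59 kb from an end of Evi2a and 3.72 kb from an end of Evi2b. The midpoints of all 4 fell within 10.5 kb. Omg, which encodes a myelin protein of the brain, had 0 sites in either list.

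Annotated starts were known for 2 of the 4 genes nested in Nf1, Evi2 and Evi2b (not for Omg and Evi2a). These 2 starts differed in sequence from those of the RAS pathway genes. The 250 bases before the start of Evi2 (chr11:79530610-79530859, minus strand) and of Evi2b (chr11:79523763-79524012, minus strand) are shown because the sites of Nf1 lie there, again with CpG in capitals and from RefSeq, GRCm38.p6.
Evi2: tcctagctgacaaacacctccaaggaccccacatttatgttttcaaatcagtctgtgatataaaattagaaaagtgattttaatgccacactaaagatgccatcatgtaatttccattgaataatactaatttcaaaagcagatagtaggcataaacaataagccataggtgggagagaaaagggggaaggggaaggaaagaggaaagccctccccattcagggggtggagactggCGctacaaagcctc
Evi2b: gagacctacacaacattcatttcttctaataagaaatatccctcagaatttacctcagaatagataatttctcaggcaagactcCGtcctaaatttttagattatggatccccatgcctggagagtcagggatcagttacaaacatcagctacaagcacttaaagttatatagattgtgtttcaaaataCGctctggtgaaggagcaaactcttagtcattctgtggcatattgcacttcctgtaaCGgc
The window of Evi2 had 1 CpG and that of Evi2b 3, fewer than any of the 8 windows of the RAS pathway genes (14 to 33). Both sites covered their window whole.

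**Figure D4:**
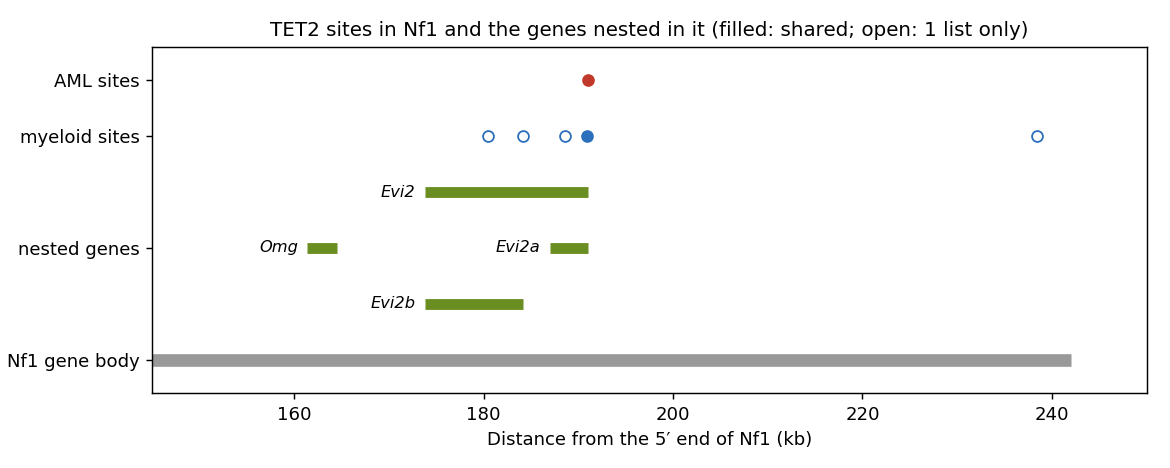
TET2 sites of both lists (circles at site midpoints, filled where shared, open where in 1 list only) by distance from the lower-coordinate end of Nf1 (kb), the end it is transcribed from, over the part of Nf1 that holds nested genes (green). The AML site and 4 myeloid sites lie over Evi2, Evi2a and Evi2b. Another myeloid site lies near the far end of Nf1, and the sixth, upstream of Nf1, is outside the range drawn.

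The 2 myeloid sites of Nf1 that belonged to no nested gene were both myeloid-only. One lay 3.55 kb inside the far end of the gene (chr11:79577717-79578398). The other (chr11:79306827-79307528) lay 32.4 kb upstream, inside the annotated gene Gm30561, which is not among the protein-coding genes. No site of either list lay within 1 kb of the start of Nf1.

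Rasa1, the second gene of a RAS-inactivating protein, had 1 site in each list, and they were the same site. Rasa1 lies on chromosome 13 from 85214699 to 85289486, on the minus strand. Its AML site (chr13:85288972-85289669, 697 bp) lay wholly inside the myeloid site (chr13:85288821-85289899, 1078 bp), with midpoints 166 and 126 bp downstream of the start. The myeloid site covered the promoter window printed above whole, and the AML site 183 bp of it. Class averages were 0.50 AML and 1.28 myeloid sites. The myeloid site was at least as wide as 95.8% of its list.

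Cbl, a ubiquitin ligase for active receptors, had 2 AML sites and 3 myeloid sites and was the only one of the 9 genes with an AML-only site. Cbl lies on chromosome 9 from 44142976 to 44234259, on the minus strand, and its class averages were 0.35 and 1.02. The shared site lay at the start, at chr9:44233831-44234510 in the AML list and chr9:44233680-44234559 in the myeloid list. Both covered the whole promoter window printed above. The AML-only site, at chr9:44160935-44161651, lay inside the gene, 18.3 kb from its far end, and the nearest myeloid site was 30.1 kb away. The 2 myeloid-only sites lay inside the gene too, 2.86 and 42.7 kb downstream of the start.

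Cblb, the related ligase CBL-B, had 2 AML sites and 4 myeloid sites, all inside the gene and none at its ends. It lies on chromosome 16 from 52031230 to 52208047, on the plus strand, with class averages of 0.81 and 1.78. Both AML sites were shared. They lay 50.4 kb (chr16:52081581-52082338) and 104 kb (chr16:52134857-52135532) from the start, and the midpoints of the lists differed by 59 and 58 bp. The 2 myeloid-only sites lay 29.8 and 59.5 kb from the start. Cbl and Cblb thus differed in place: at Cbl the shared site was at the start, at Cblb both were far inside.

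Braf, the kinase below RAS, had 0 sites in either list. It lies on chromosome 6 from 39603231 to 39725658, on the minus strand, and 162 kb of sequence was counted for it. Its class averages were 0.50 AML and 1.28 myeloid sites, and 29.3% and 49.8% of genes of that class had at least 1. Neither list held a site at 12258 of the 21883 genes.

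**Figure D5:**
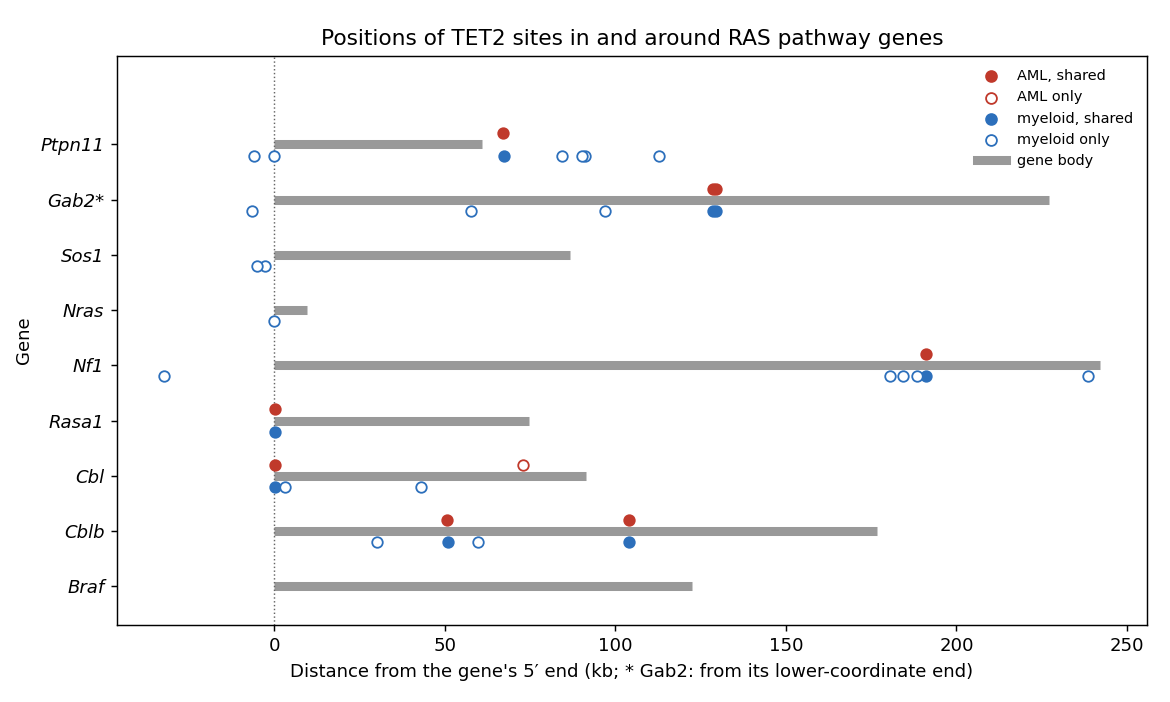
Midpoints of TET2 sites (circles) by distance from the transcribed start of each gene (kb), or for Gab2 from its lower-coordinate end, with gene bodies in grey. AML sites are red and above the gene, myeloid sites blue and below it, filled where shared and open where in 1 list only. Shared sites lie at the start in Rasa1 and Cbl, deep inside Gab2, Nf1 and Cblb, and beyond the far end in Ptpn11.

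Over the 9 genes, 8 of the 9 AML sites and 18 of the 29 myeloid sites lay inside a gene of the group. Within 1 kb of an end of any protein-coding gene were 3 AML sites (33.3%, exact Clopper-Pearson 95% interval 7.49 to 70.1) and 6 myeloid sites (20.7%, 7.99 to 39.7), those at Evi2 and Evi2b included. Over all sites the shares were 8.82% and 22.6%, both inside these intervals. The intervals take sites as independent and are wide at 9 and 29 sites, so they do not show equal shares. More than 10 kb from an end of any protein-coding gene were 55.6% of the 9 AML sites and 48.3% of the 29 myeloid sites, near the 61.9% and 49.5% of the whole lists. The gene table gives no exons, so sites inside genes could not be divided into exonic and intronic. Shared myeloid sites of the 9 genes had a median width of 777 bp and unshared ones 683 bp, as against 758 and 695 bp in the whole myeloid list.

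Other genes of the pathway were taken from a list of 40 genes. Of these, 20 had at least 1 AML site and 30 at least 1 myeloid site (50% and 75%). The background is 19.7% and 41.9% of all genes, whatever their length. They held 33 AML sites, of which 27 were shared, and 80 myeloid sites, where their length class averages summed to 14.3 and 38.5. Neither list had a site at 9 of the 40. The median was 0.5 AML sites and 1 myeloid site per gene, against 0 and 0 over all genes and 1 and 3 over the 9 genes.

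Hras, a RAS gene closely related to Nras, had 0 sites in either list. Among 8 genes of adaptors and phosphatases, AML sites were found at 3 and myeloid sites at 6. Grb2, the adaptor that carries SOS proteins, had 3 and 4, the phosphatase gene Ptpn6 (SHP-1) had 2 and 3, and the docking protein gene Dok2 had 1 and 5. Gab1, a relative of Gab2, had 0 in both lists.

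All 7 further exchange factor genes had a myeloid site and 5 an AML site. Sos2, the relative of Sos1, had 2 AML sites and 3 myeloid sites, and unlike Sos1 it had a site of each list within 1 kb of its start. Rasgrf1 had 2 in each list, and Rasgrf2, Rasgrp3 and Rasgrp4 each had 1 in the AML list and 2 in the myeloid list. AML sites were found at 4 of 8 further genes of GTPase-activating proteins, and myeloid sites at 6. Rasa2 had 4 and 8, Dab2ip 2 and 4, Rasa3 1 and 5, and Rasal3 1 in each list, shared and at its start.

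The RAF and ERK cascade below RAS had sites at most of its other genes. AML sites were found at 7 of 9 genes and myeloid sites at 7. Ksr1, a scaffold of the cascade, had 3 AML sites, all shared, and 9 myeloid sites. Araf, a relative of Braf, had 1 AML site and 0 myeloid sites. Map2k1 (MEK1) had 2 and 4, Mapk3 (ERK1) 1 and 3, and Ksr2 1 in each list. None of the 40 genes passed the test of AML-only against myeloid-only sites (Fisher's exact test, adjusted p = 1 for each gene tested).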

How the data were processed

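TET2 ChIP-seq was made from 12 libraries of mouse cells. Per the labels' protocols, cells were crosslinked with 2 mM disuccinimidyl glutarate and 1% formaldehyde, and chromatin was sheared to 200 to 500 bp. Such double crosslinking can also recover DNA that TET2 reaches through other proteins. Trimmomatic, Bowtie2, MACS2 and the mm10 build are named in the submitters' processing notes. Their versions and thresholds, and how replicate, knockout, IgG and input libraries entered each list, were not given in the sources used here. Per the file headers, the authors deposited 7002 AML and 19706 myeloid sites, each with a chromosome, start and end and no score. Positions may be off by 1 bp, since the counting base of the starts is not stated.

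Sites overlapping by at least 1 bp within a list were merged, on chromosomes 1 to 19, X and Y. Genes, promoters and strands came from RefSeq tables of GRCm38.p6. All 9 genes and all 40 listed pathway genes matched the gene table, and 8 of the 9 the promoter table. Python 3.11.15, pandas 2.3.3 and scipy 1.17.1 were used, and the per-gene test was tested on simulated data. The text names all 9 genes, pathway genes with an AML site or at least 4 myeloid sites, and neighbours that a site lies closer to; some of these are not reported here. Hras, Gab1, Omg and Gm30561 were named after their values were seen. The genes, lists and tests were chosen with earlier results of these data known.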

Additional observations from a re-analysis of the deposited data

How the results depend on the processing

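The summary counts of the 9 genes stayed within 1.5 times their value under all alternatives run. AML sites ran from 8 to 9, myeloid sites from 24 to 31 and shared sites from 7 to 8. Sites at gene ends ran from 2 to 3 in the AML list and from 4 to 7 in the myeloid list. Genes with an AML site ran from 5 to 6. These alternatives left sites unmerged, set the limit at 20 kb, used the nearest gene end alone, used all annotated genes, and changed the overlap criterion and the width of a gene end. As alternatives chosen after seeing the data, starts were counted from 0, and Nf1 sites nearest to nested genes were left out (8 AML and 25 myeloid sites). Of 124 single-gene values 5 moved: Ptpn11 had 3 myeloid sites within 20 kb, and Nf1 had 0 AML and 2 myeloid sites under both rules that give nested genes their own sites. The per-gene test called 2 or 3 genes under its alternatives, none of the 9. No paired analysis was possible because no list holds a value for a single library, and for the same reason no replicate could be left out. Sites have no score, so a stricter threshold was not run.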
